A study of Mus musculus with 23 samples.

Results

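Collagen chains were taken as the protein-coding genes of the GRCm39 annotation whose symbol is Col, a number, the letter a and a number, and which held at least 50 counts summed over all libraries. Of 44 genes with such a symbol 43 met this count, among 56941 genes in the count tables. Col17a1 fell just outside with 48 counts, and Col6a4 with 64 and Col4a3 with 77 counts lay just inside. They were described in 3 classes: 11 fibrillar chains, 8 basement membrane chains and 24 others, the last comprising 9 fibril-associated chains with interrupted helices (FACIT), 6 type VI chains, 3 transmembrane chains, 3 short-chain network chains and 3 anchoring or remaining chains.

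Every collagen is built from 3 chains that wind into a triple helix, which requires glycine at regular steps along the chain. Fibrillar collagens form the rope-like fibrils of skin, bone, cartilage and meninges, with types V and XI at the core of fibrils of types I and II. Type IV collagens form the sheet of basement membranes, and types XV and XVIII attach to it. In brain, basement membranes surround vessels and cover the surface under the meninges, whereas several FACIT and transmembrane collagens, Col19a1 and Col25a1 among them, are made by neurons.

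The libraries came from primary hippocampal cultures of homozygous NEDD8cKO mice at P0, in which loxP sites flank exons of Nedd8, the gene of a ubiquitin-like modifier. Both groups carried these alleles, and the study gives the age of the mice only as P0. RFP cultures received a lentivirus expressing red fluorescent protein and served as control, CRE cultures received a lentivirus for CRE recombinase and RFP, and the labels give 12 days in culture before RNA was taken, the study's methods a day more. According to the study's methods the Synapsin1 promoter drove both viruses, and a well held the cells of about a pair of hippocampi. That recombination is directed to neurons is read here from the promoter. There were 12 CRE and 11 RFP libraries. Their names carry a number from 1 to 3 before the library number, which is called a culture here although the labels do not say what it marks, and the comparison below used 10 CRE and 11 RFP libraries.

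CRE libraries 1-3 and 3-3, which the study's methods leave out, stood apart: their share of mitochondrial counts was 0.261% and 1.83%, against 3.43% to 11.1% in the 21 libraries compared. Total counts of those 21 libraries lay between 7635735 and 17112815, and collagen chains took 0.0304% to 0.116% of them. RFP library 2-4 held 3.43% mitochondrial counts and RFP library 3-2 held 24.2% counts of the ribosomal gene Rn18s-rs5. Nedd8 (chromosome 14) checked the labels: its level was 44.1, 61.4 and 76.0 CPM (counts scaled to library size) as lowest, median and highest RFP value and 5.92, 11.7 and 18.0 CPM in CRE (log2 fold change −2.41, SE 0.16, edgeR adjusted p = 1.79e-12). Every CRE library lay below every RFP library.

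Markers of the cell types that such cultures can hold were read beside the collagens. Over all genes tested 20.2% were called higher and 17.8% lower, so a few calls among 6 markers are no result about a cell type. All 6 neuronal markers were present, and 5 of them were lower in CRE libraries, with a summed level of 4760 to 6370 CPM in RFP and 2730 to 4970 CPM in CRE libraries. The sum over 6 astrocyte markers was 1630 to 5390 CPM in RFP and 941 to 3670 CPM in CRE libraries, with 1 called higher and 2 called lower. The 6 markers of the oligodendrocyte lineage summed to 526 to 1480 CPM in RFP and 410 to 887 CPM in CRE, with 3 called lower. Markers of microglia (1.03 to 6.56 CPM in RFP, 0.171 to 4.35 CPM in CRE) and of endothelial cells (2.17 to 9.57 CPM in RFP, 1.26 to 10.1 CPM in CRE) were near 0 in both groups, and only Csf1r and Kdr passed the filter on low counts, of which Kdr was called, lower in CRE. Without the filter Cx3cr1 (lower, edgeR adjusted p = 0.0186, at most 11 counts in an RFP library and 0 in CRE) and Cldn5 (higher, edgeR adjusted p = 0.033, at most 3 counts in a CRE library and 0 in RFP) were called too.

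The sequences of the chains differ by class in the glycine repeat. Members were chosen without it, but classes such as FACIT are named for their helix, so this is no independent result about the classes. The glycine repeat is read in the coding sequence as codons GGN that recur with any pair of codons between them. In 9 of the 11 fibrillar chains the longest uninterrupted run held 337 to 344 repeats, in Col24a1 216 and in Col27a1 217. In basement membrane chains the longest run held 30 to 66 repeats, the helix of type IV chains being known for many interruptions, and in the other chains 23 to 113. Stretches of 72 bases from the longest run are shown for chains that were higher (Col5a1, Col11a1, Col4a6) and lower (Col11a2, Col25a1) in CRE libraries, with the glycine codons in capitals, taken from the coding sequence of the canonical transcript on GRCm39.
Col5a1: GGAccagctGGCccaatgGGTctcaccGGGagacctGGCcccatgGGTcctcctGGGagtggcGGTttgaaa
Col11a1: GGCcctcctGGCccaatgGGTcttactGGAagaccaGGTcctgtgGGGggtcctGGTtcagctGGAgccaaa
Col11a2: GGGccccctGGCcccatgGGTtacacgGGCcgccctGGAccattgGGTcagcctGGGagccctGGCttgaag
Col4a6: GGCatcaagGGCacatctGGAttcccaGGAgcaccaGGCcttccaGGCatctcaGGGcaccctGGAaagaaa
Col25a1: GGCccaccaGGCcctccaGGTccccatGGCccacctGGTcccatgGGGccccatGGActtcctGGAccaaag

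Exons of the chains were rich in G and C. The median exon GC content was 54.0% over the 43 chains and 49.2% over all 14482 genes tested, with 52.6% in the chains called higher and 52.3% in those called lower. In a fit from which a trend with GC content had been removed, 9 chains were called higher and 5 lower.

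**Figure D1:**
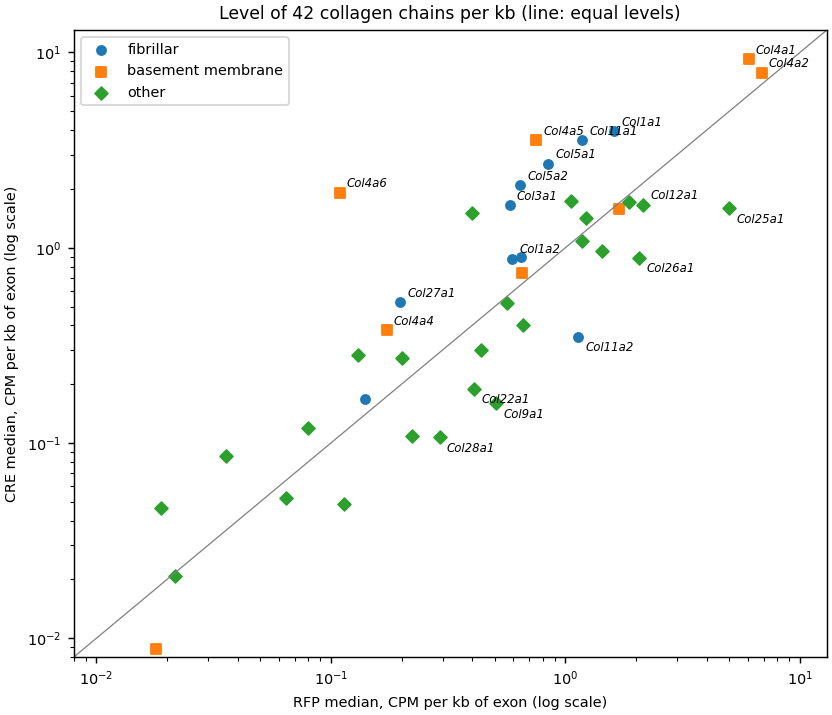
Median CPM per kilobase of exon in 11 RFP libraries (x axis, log scale) and 10 CRE libraries (y axis, log scale) for 42 collagen chains by class; the line marks equal levels. Col4a1 and Col4a2 lie at the top in both groups, Col4a6 lies farthest above the line and Col11a2 is the fibrillar chain farthest below it.

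Per kilobase of exon, the most abundant chains of RFP cultures were Col4a2 (median 6.87 CPM per kb), Col4a1 (6.05), Col25a1 (4.98), Col12a1 (2.14) and Col26a1 (2.06). The first of these are the chains of the ubiquitous type IV collagen, which assembles from Col4a1 and Col4a2. In CRE cultures the order was Col4a1 (9.23 CPM per kb), Col4a2 (7.87), Col1a1 (3.96), and Col11a1 and Col4a5 (3.55 each), and Col25a1 stood at place 13 of 43. The ranges of Col4a1 and Col4a2 overlapped in both groups. Col24a1 was at 0 in the median RFP library, with at most 5 counts in a library.

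Of the 43 chains 35 passed the filter on low counts. The 8 that did not were Col24a1 among the fibrillar, Col4a3 among the basement membrane, and Col6a4, Col6a5, Col6a6, Col8a2, Col13a1 and Col14a1 among the other chains, all with medians under 1 CPM in both groups. Col24a1 was called in a fit without the filter (log2 fold change 3.11, edgeR adjusted p = 0.0126), where 24.4% of all genes were called, and with counts summed per culture.

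In CRE cultures 8 chains were higher and 6 lower, and the classes went different ways. All 8 chains called higher were fibrillar or of type IV, whereas 5 of the 6 called lower belonged to neither class, the exception being Col11a2. These 14 of 35 chains amount to 40.0%, close to the 37.9% of all genes tested that were called, so the number of calls is not a result about collagens. Over all genes 20.2% were called higher and 17.8% lower. By class, 4 of 10 fibrillar chains were called higher and 1 lower (median log2 fold change 1.34), 4 of 7 basement membrane chains were called higher and 0 lower, also at an unadjusted p under 0.05 and by DESeq2 and limma-voom (0.73), and of 18 other chains none was called higher and 5 lower (−0.36), beside a median of 0.02 over all genes tested. With all 43 chains and no filter the medians were 1.52, 0.70 and −0.24, against 0.10 over all genes. In these bulk libraries fewer cells of a type and less RNA per cell cannot be told apart.

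**Figure D2:**
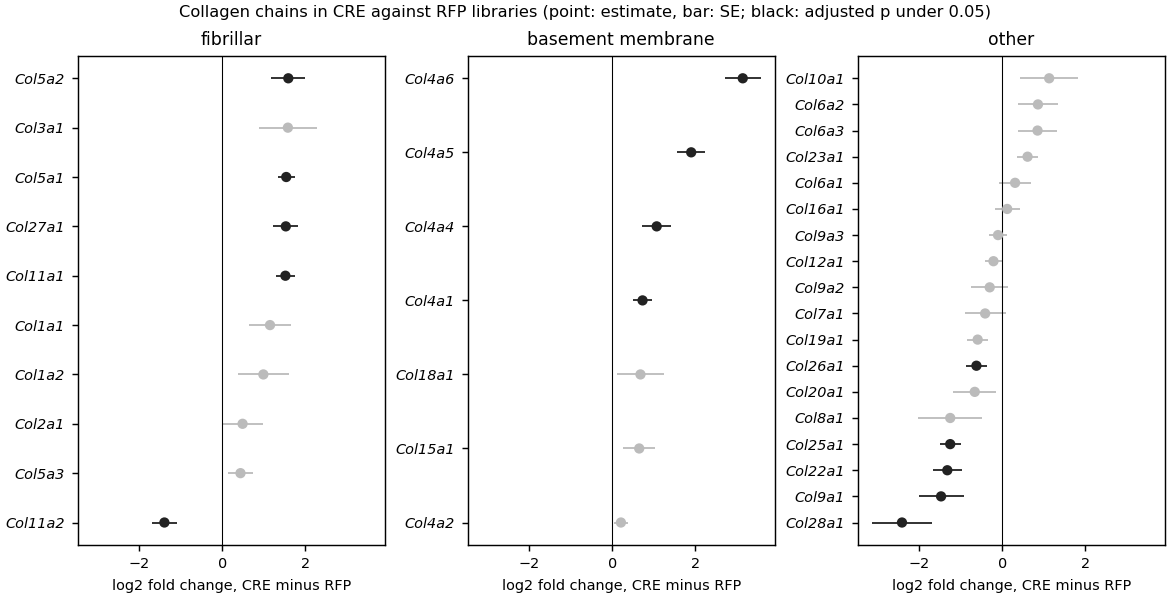
Log2 fold change between CRE and RFP libraries (x axis) of the 35 collagen chains tested, by class, with points for the estimate and bars for 1 SE; black marks an adjusted p under 0.05. In the fibrillar panel every chain but Col11a2 lies right of 0, and in the panel of other chains all called chains lie left of 0.

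The highest fold of all chains was that of Col4a6 (chromosome X), a type IV chain that pairs with Col4a5. Its lowest, median and highest values were 0.202, 0.870 and 5.24 CPM in RFP and 6.36, 15.2 and 23.6 CPM in CRE, and all 10 CRE libraries lay above all 11 RFP libraries. Such full separation upwards was seen for 3.07% of all genes tested. The log2 fold change was 3.14 (SE 0.43, edgeR adjusted p = 1.8e-06), and within cultures 1, 2 and 3 it was 2.42, 4.04 and 3.63. Col4a5 went from 2.18, 7.01 and 23.6 CPM to 11.3, 33.1 and 48.1 CPM. Here 8 of 10 CRE libraries exceeded the RFP range, while an RFP library of culture 3 reached 23.6 CPM (log2 fold change 1.90, SE 0.33, edgeR adjusted p = 7.98e-05). Col4a5 was not called in culture 3 alone.

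Col4a1 was 25.3, 45.1 and 64.0 CPM in RFP and 29.4, 68.9 and 148 CPM in CRE libraries, 6 of which exceeded all RFP libraries (log2 fold change 0.73, SE 0.23, edgeR adjusted p = 0.0133). It was not called without culture 2 (adjusted p = 0.0568), without culture 3 (0.0893) or in any culture alone. Its partner Col4a2 was 38.5, 49.3 and 69.5 CPM in RFP and 30.6, 56.5 and 101 CPM in CRE libraries and was not called (0.21, SE 0.17, edgeR adjusted p = 0.354). Col4a4, a chain of the collagen IV network of kidney and inner ear, was 0.359, 1.98 and 4.83 CPM in RFP and 2.05, 4.33 and 7.96 CPM in CRE (1.07, SE 0.35, edgeR adjusted p = 0.0169). The groups overlapped for all 3 chains. Col4a4 was no longer called without CRE library 3-4 (adjusted p = 0.0529), with all 23 libraries (0.0976), or on sums per culture (0.069). Nor was Col4a4 called in any culture alone, without culture 2, without culture 3, or with the 21 libraries of the study's supplement. Col15a1 (0.65) and Col18a1 (0.68), the basement membrane chains of types XV and XVIII, had adjusted p-values of 0.192 and 0.368.

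Type IV genes lie in head-to-head pairs. Transcription starts of Col4a1 and Col4a2 lie 317 bases apart and those of Col4a3 and Col4a4 103 bases apart, and in both pairs exons overlap on opposite strands (311 and 159 bases). The study's methods name a stranded library kit, but the strand setting of the counting is not given in the sources used here. A share of the reads of such a pair could therefore have been counted for the other gene or dropped. Col4a5 and Col4a6 start 1282 bases apart, facing away from each other, with no overlap. The 250 bases before each of these starts, from GRCm39, are shown because both chains were higher, followed by those of the type XI genes, which went opposite ways. Capitals mark, on either strand, the letters TATAAA known from the TATA box, the letters CCAAT known from the CCAAT box, and also the letters GGGCGG known from the GC box.
Col4a5 (chrX:140258104-140258353, plus strand): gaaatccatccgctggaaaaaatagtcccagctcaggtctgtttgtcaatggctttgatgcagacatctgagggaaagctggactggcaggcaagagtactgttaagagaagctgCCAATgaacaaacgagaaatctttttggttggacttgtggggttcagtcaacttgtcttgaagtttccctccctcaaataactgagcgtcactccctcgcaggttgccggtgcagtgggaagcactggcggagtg
Col4a6 (chrX:140257073-140257322, minus strand): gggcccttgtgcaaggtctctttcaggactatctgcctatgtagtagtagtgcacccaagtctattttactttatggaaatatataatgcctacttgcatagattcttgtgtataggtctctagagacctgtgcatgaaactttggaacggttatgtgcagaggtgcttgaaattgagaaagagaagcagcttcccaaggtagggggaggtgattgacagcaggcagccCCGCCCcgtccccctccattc
Col11a1 (chr3:113823884-113824133, plus strand): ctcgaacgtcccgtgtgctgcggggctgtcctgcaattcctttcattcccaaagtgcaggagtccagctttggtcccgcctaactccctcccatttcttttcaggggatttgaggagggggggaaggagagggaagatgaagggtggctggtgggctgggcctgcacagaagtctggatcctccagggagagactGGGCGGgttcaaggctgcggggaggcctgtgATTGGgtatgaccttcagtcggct
Col11a2 (chr17:34257866-34258115, plus strand): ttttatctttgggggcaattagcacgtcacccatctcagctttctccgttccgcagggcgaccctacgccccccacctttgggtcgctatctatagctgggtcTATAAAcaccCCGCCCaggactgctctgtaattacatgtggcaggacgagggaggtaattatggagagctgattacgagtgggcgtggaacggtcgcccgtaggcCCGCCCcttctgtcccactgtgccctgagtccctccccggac

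In windows from 250 bases before to 50 bases after the start, TATAAA was present in 7 of 43 collagen genes (16.3%) and in 13.2% of all 21770 protein-coding genes, CCAAT in 37.2% and 39.9%, and GGGCGG in 53.5% and 42.5%. Among fibrillar genes 8 of 11 held GGGCGG. These are matches of letters only.

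**Figure D3:**
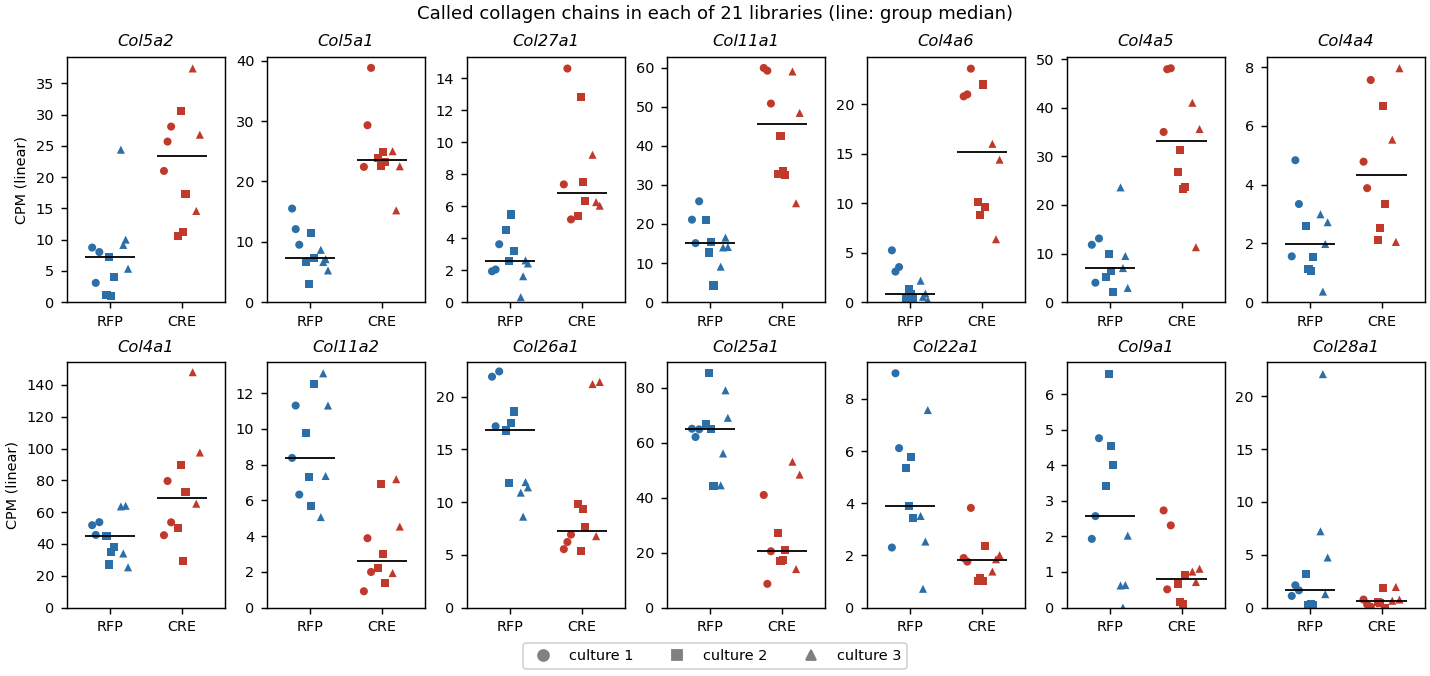
CPM (y axis, linear from 0) of the 14 called collagen chains in each of 11 RFP (blue) and 10 CRE (red) libraries, with marker shapes for the 3 cultures and lines for group medians. Col4a6 separates the groups fully, Col11a1 and Col5a1 nearly so, and for Col26a1 a pair of CRE libraries of culture 3 lies far above the other CRE libraries.

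Among fibrillar chains, the type V chains Col5a1 and Col5a2 and Col27a1 rose. Col5a1, the chain that starts collagen I fibrils, was 3.08, 7.36 and 15.5 CPM in RFP and 15.2, 23.5 and 38.8 CPM in CRE libraries. In 9 of 10 CRE libraries it exceeded the RFP range (log2 fold change 1.54, SE 0.20, edgeR adjusted p = 5.83e-07; 1.25, 1.67 and 1.57 in the 3 cultures). Its partner Col5a2 was 0.953, 7.18 and 24.4 CPM in RFP and 10.6, 23.3 and 37.4 CPM in CRE, where 5 libraries exceeded the RFP range (1.59, SE 0.41, edgeR adjusted p = 0.00382). Col27a1, a fibrillar chain with a short helix found in cartilage, was 0.310, 2.56 and 5.48 CPM in RFP and 5.17, 6.85 and 14.6 CPM in CRE, where 8 libraries exceeded the RFP range (1.53, SE 0.30, edgeR adjusted p = 0.000187). Col5a2 was not called without culture 1 or in culture 3 alone, and Col27a1 was not called in culture 2 alone or in culture 3 alone.

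The type XI chains went in opposite directions. Col11a1 was 4.27, 15.1 and 25.8 CPM in RFP and 25.3, 45.5 and 59.9 CPM in CRE libraries, and 9 of 10 CRE libraries lay above all RFP libraries (log2 fold change 1.52, SE 0.22, edgeR adjusted p = 2.87e-06). Col11a2 was 5.06, 8.37 and 13.1 CPM in RFP and 0.910, 2.61 and 7.18 CPM in CRE, and 8 of 10 CRE libraries lay below all RFP libraries (−1.39, SE 0.31, edgeR adjusted p = 0.000579). Both directions held in each culture, at 1.41, 1.34 and 1.70 for Col11a1 and −1.97, −1.42 and −1.04 for Col11a2. In culture 3 alone Col11a2 was not called (edgeR adjusted p = 0.214). The 407 exon bases that Col11a1 shares with Gm65490 on the opposite strand could not be resolved without the strand setting.

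The chains of the major fibrils were more variable. Col1a1 was 0.908, 10.6 and 28.2 CPM in RFP and 2.48, 26.0 and 66.2 CPM in CRE libraries (log2 fold change 1.15, SE 0.50, edgeR adjusted p = 0.0797). Col1a2 had a log2 fold change of 0.99 (SE 0.62, edgeR adjusted p = 0.229) and Col3a1 of 1.58 (SE 0.70, edgeR adjusted p = 0.0846). RFP values of Col3a1 ranged from 0.0908 CPM in library 2-4 and 2.72 CPM in the next lowest library to 31.6 CPM, while those of Col4a2 differed 1.80-fold. Col3a1 in CRE library 3-1 stood at 145 CPM with a CRE median of 16.9 CPM. Col1a1 and Col3a1 passed the threshold without CRE library 2-3 (adjusted p = 0.0321 and 0.0492), and Col1a1 did with all 23 libraries (0.034). Col2a1 and Col5a3 had log2 fold changes of 0.49 and 0.44 and were not called (adjusted p = 0.459 and 0.267).

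In the comparison of 21 libraries all called chains outside both classes were lower in CRE cultures. Col25a1, a transmembrane collagen of neurons also found in amyloid plaques, was 44.2, 65.0 and 85.4 CPM in RFP and 8.63, 20.7 and 53.1 CPM in CRE libraries. Of 10 CRE libraries 8 lay below the whole RFP range (log2 fold change −1.25, SE 0.25, edgeR adjusted p = 0.000354), and the changes within cultures were −1.50, −1.72 and −0.71. The FACIT chain Col22a1, known from tissue junctions of muscle, was 0.719, 3.90 and 8.98 CPM in RFP and 1.02, 1.80 and 3.82 CPM in CRE (−1.32, SE 0.35, edgeR adjusted p = 0.00326). Its groups overlapped, and RFP library 3-2 held the lowest value of all. Without culture 2 neither Col25a1 (adjusted p = 0.0526) nor Col22a1 (0.0989) was called. Both also lost their calls in culture 1 alone and in culture 3 alone.

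For the remaining 3 chains the call was lost with counts summed per culture (adjusted p = 0.128 for Col9a1, 0.0518 for Col28a1 and 0.226 for Col26a1). Col9a1, a FACIT chain of cartilage, was 0, 2.57 and 6.56 CPM in RFP and 0.0854, 0.812 and 2.73 CPM in CRE (log2 fold change −1.47, SE 0.54, edgeR adjusted p = 0.0331). Within cultures it was −0.79, −3.41 and 0.14, and the call was lost without CRE library 1-2, 2-2 or 2-3 or RFP library 1-3, 2-2 or 2-3 (adjusted p = 0.0525 to 0.0707). Col28a1 was 0.205, 1.63 and 22.1 CPM in RFP and 0, 0.600 and 1.95 CPM in CRE (−2.41, SE 0.73, edgeR adjusted p = 0.0109), and it no longer passed the filter when any of 8 RFP libraries was left out and was not called by limma-voom (adjusted p = 0.106).

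Col26a1 was 8.62, 16.8 and 22.4 CPM in RFP and 5.40, 7.26 and 21.4 CPM in CRE libraries (log2 fold change −0.62, SE 0.25, edgeR adjusted p = 0.0489). It was lower in cultures 1 and 2 (−1.76 and −1.06) and stood at 0.59 in culture 3, where CRE libraries 3-1 and 3-4 held 21.2 and 21.4 CPM. The effect differed between cultures (edgeR adjusted p of the interaction = 0.03895, where 0.311% of all genes tested were called), and Col26a1 was the only collagen chain called. Leaving out any of 13 of the 21 libraries ended the call (adjusted p = 0.0504 to 0.0888): CRE libraries 1-1, 1-2, 1-4, 2-2, 2-3, 2-4 and 3-2, and RFP libraries 1-1, 1-2, 1-3, 2-1, 2-3 and 2-4.

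None of the other 13 chains tested in this class was called by edgeR, and 1 of the 18, Col23a1, had a positive change at an unadjusted p under 0.05 and was called higher by DESeq2 and by limma-voom. The type VI chains Col6a1, Col6a2 and Col6a3, which form beaded filaments, had log2 fold changes of 0.31, 0.86 and 0.85 (adjusted p = 0.574, 0.171 and 0.162). The most abundant FACIT chain, Col12a1, was 14.5, 32.7 and 38.5 CPM in RFP and 11.1, 25.4 and 47.4 CPM in CRE (−0.21, SE 0.21, edgeR adjusted p = 0.469). Values of the further FACIT chains were −0.59 for Col19a1, −0.66 for Col20a1, −0.30 for Col9a2, −0.10 for Col9a3 and 0.12 for Col16a1. Col23a1 (0.61), also a transmembrane chain, and Col19a1 came closest to the threshold (adjusted p = 0.0566 and 0.0678). Col10a1 (1.13), Col8a1 (−1.25) and Col7a1 (−0.41) had adjusted p-values of 0.211, 0.215 and 0.552. Some alternatives called Col10a1 higher, among them culture 1 alone and the fit without culture 3. Col6a3 was called higher in culture 3 alone and without culture 1. In the other direction, Col19a1 was called lower by DESeq2 and Col12a1 without culture 3.

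**Figure D4:**
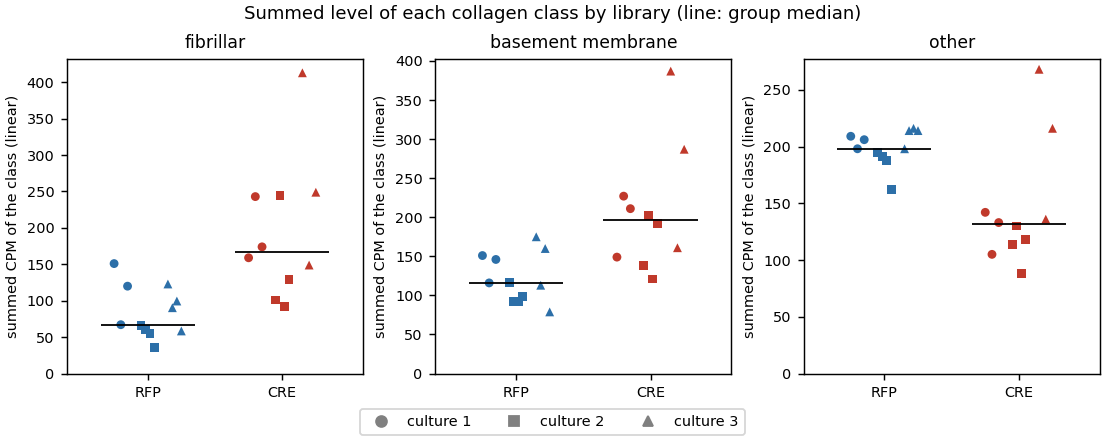
Summed CPM of each collagen class (y axis, linear from 0) in 11 RFP and 10 CRE libraries, with marker shapes for cultures and lines for medians. Fibrillar and basement membrane sums are higher in most CRE libraries, the sum of other chains is lower in 8 of 10, and the topmost CRE point in each panel is library 3-1.

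Summed over a class, fibrillar chains were 36.3, 67.1 and 151 CPM in RFP and 92.6, 166 and 413 CPM in CRE libraries, and basement membrane chains 78.9, 116 and 175 CPM in RFP and 121, 197 and 387 CPM in CRE. For both classes 6 of 10 CRE libraries lay above all RFP libraries. The other chains summed to 162, 198 and 216 CPM in RFP and 88.0, 132 and 268 CPM in CRE, and 8 CRE libraries lay below the RFP range. In this class Col25a1 alone stood at a median of 65.0 CPM in RFP and 20.7 CPM in CRE. The FACIT sum had medians of 78.3 CPM in RFP and 56.8 CPM in CRE, with 6 CRE libraries below the RFP range. The type VI sum had medians of 15.1 and 14.9 CPM, with 3 CRE libraries above the RFP range. CRE library 3-1 held the highest CRE value of 17 of the 43 chains and of each class sum. After it followed library 3-4, at 249, 287 and 216 CPM.

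**Figure D5:**
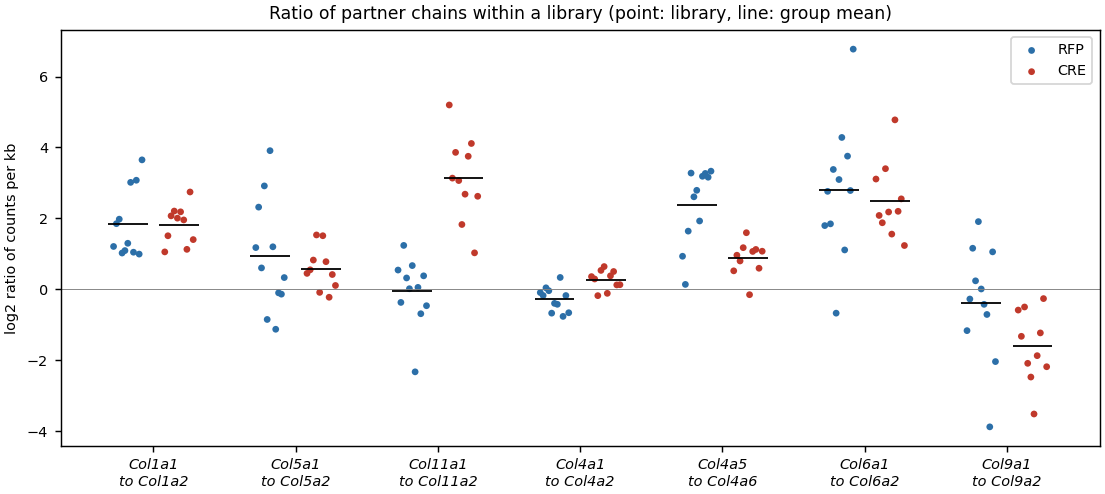
Log2 ratio of counts per kb of exon between the chains of a pair (y axis) in each of 11 RFP (blue) and 10 CRE (red) libraries, with lines for group means. Col11a1 to Col11a2 and Col4a1 to Col4a2 lie higher in CRE, and Col4a5 to Col4a6 lies lower.

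Chains that share a trimer were compared within each library by the ratio of their counts per kilobase. For 7 pairs, chosen after the data had been seen, group means of the log2 ratio were compared by a two-sided permutation test with Benjamini-Hochberg adjustment over the pairs. Col11a1 exceeded Col11a2 by a median factor of 1.04 in RFP and 8.58 in CRE libraries (difference of mean log2 ratios 3.19, adjusted permutation p = 0.00028), with 9 of 10 CRE libraries above all RFP libraries. As Col11a1 was called higher and Col11a2 lower in the same libraries, this difference restates those calls and adds no separate support. The ratio of Col4a1 to Col4a2 was 0.885 in RFP and 1.25 in CRE (0.54, adjusted permutation p = 0.0028). That of Col4a5 to Col4a6 was 6.92 in RFP and 2.02 in CRE (−1.51, adjusted permutation p = 0.0028). No difference passed the threshold for Col1a1 to Col1a2, Col5a1 to Col5a2, Col6a1 to Col6a2 or Col9a1 to Col9a2 (adjusted permutation p = 0.973, 0.74, 0.775 and 0.0926), and the last passed it without RFP libraries 2-4 and 3-2 (0.0116).

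The genes that make, cut and bind collagen gave the following counts, to be read against the 20.2% of all genes called higher and the 17.8% called lower; for 2 of 11 or 2 of 10 genes the share is near that background. Of 22 tested genes of collagen folding and modification 10 were higher and 1 lower in CRE cultures (median log2 fold change 0.26). Among them were Fkbp14 (0.96, edgeR adjusted p = 6.93e-06), a prolyl isomerase, and Crtap (1.37) and P3h1 (0.99), which modify collagen prolines in a complex, and P4hb (0.49), a subunit of prolyl 4-hydroxylase. Of 11 tested genes of processing and cross-linking, 2 were higher and none lower (0.83): the lysyl oxidase-like enzymes Loxl3 (1.12, higher in 10 of 10 CRE libraries than in any RFP library) and Loxl1 (2.24).

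Of 10 tested genes of collagen degradation 2 were higher, the membrane collagenase Mmp14 (1.21) and the collagen uptake receptor Mrc2 (1.87), and 2 lower, Mmp15 (−0.46) and the inhibitor Timp2 (−0.50). Without the filter Timp2 was not called (edgeR adjusted p = 0.0714), and the inhibitor Timp1, too low to pass the filter, was called higher (3.06, edgeR adjusted p = 0.000795), with 8 of 10 CRE libraries above the RFP range. Of 9 tested collagen receptors 5 were higher and 1 lower, beside 20.2% and 17.8% of all genes (median 0.45). The receptor kinase Ddr2 was 8.72, 16.5 and 25.2 CPM in RFP and 39.9, 52.1 and 71.4 CPM in CRE libraries (1.75, SE 0.16, edgeR adjusted p = 6.62e-10). The integrins Itga1 (1.52) and Itgb1 (0.55) were higher, and Adgrg1, an adhesion receptor of collagen III, was lower (−0.86). Of 6 tested proteoglycans that bind fibrils 0 were called by edgeR, at an adjusted p of 0.0507 to 0.934, and 1 had an unadjusted p under 0.05. DESeq2 called 1, which was Bgn, and limma-voom 0. Kera and Omd were too low to pass the filter. Without it Kera was called lower (−2.20, edgeR adjusted p = 0.0383) and Omd higher (1.99, edgeR adjusted p = 0.0431).

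Of 16 tested partners of collagen IV in basement membranes 11 were higher and 1 lower, again beside 20.2% and 17.8% of all genes (median 1.12). Lamc1, the common gamma chain of laminins, was 31.5, 46.3 and 64.2 CPM in RFP and 81.9, 120 and 132 CPM in CRE libraries (1.26, SE 0.11, edgeR adjusted p = 3.95e-10). Lamb2 (1.10) and Lama4 (2.98) were also higher, and Agrn was lower (−0.34).

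Cells that make much collagen in brain were read by their markers as well, and their part in the collagen values was not tested. Calls again stand beside the 20.2% of all genes called higher and the 17.8% called lower. Of 6 mural cell markers, Rgs5 (2.71) and Pdgfrb (0.77) were higher in CRE cultures, Acta2 was not called (0.00, edgeR adjusted p = 0.998), and Kcnj8, Abcc9 and Myh11 stayed at medians under 1 CPM in both groups; the list summed to 14.1 to 68.3 CPM in RFP and 88.7 to 277 CPM in CRE, most of it Rgs5. Without the filter Abcc9 was called higher (3.89, edgeR adjusted p = 0.0128), with at most 14 counts in a CRE library and 1 in an RFP library. Of 8 markers of fibroblasts and meninges 5 were tested. Foxc1 (3.71) and Twist1 (1.54) were higher, Pdgfra was lower (−2.34), Dcn and Lum were not called, and the list summed to 58.9 to 375 CPM in RFP and 34.5 to 311 CPM in CRE. In RFP libraries most of that sum was Pdgfra (median 281 CPM), which oligodendrocyte precursors also express. Of 4 Schwann cell markers Cdh19 was higher (2.87), Sox10 was lower (−2.87), and Foxd3 was at or near 0. The list summed to 10.1 to 113 CPM in RFP and 4.41 to 48.7 CPM in CRE. In RFP libraries most of that sum was Sox10 (median 77.4 CPM), which is also among the oligodendrocyte lineage markers read above. Within cultures 1, 2 and 3 the log2 fold change was −6.34, −4.29 and −0.46 for Sox10 and −4.51, −3.58 and −0.26 for Pdgfra.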

How the data were processed

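RNA of 23 hippocampal culture libraries was sequenced after poly-A selection. The deposited files hold raw counts per gene, which the authors made with bcl2fastq 2.20.0.422, STAR 2.7.8a on GRCm39 and featureCounts 1.5.0-p1, per the labels and methods; treatment of strand and of reads with several matches is not given in the sources used here. Symbols, exons and sequence came from a GENCODE annotation of GRCm39. Counts of 10 CRE and 11 RFP libraries were fitted over all genes in edgeR 4.0.16 (filterByExpr, TMM scaling, robust quasi-likelihood fit), adjusted by Benjamini-Hochberg over 14482 genes and called under 0.05, in R 4.3.3, after the script had been tested on simulated data. CPM were scaled by TMM over 23 libraries. Level per kb used the union of exons. Ratios used a pseudocount of 0.5 counts and 100000 resamples. The study counts 3 independent units (N) for these libraries, so several libraries of a group share an origin; p-values over libraries measure the spread between libraries and may be too small, and sums per culture were fitted as an alternative. Named were all called chains, the 2 most abundant per kb of each class, the others by range, and up to 4 called genes of each list with the smallest p; Col1a2, Col3a1 and single values beside these were added after their values were seen. Members and lists were chosen with earlier results of these data known. Alternatives covered libraries, scaling, filter, tool (DESeq2 1.42.0, limma 3.58.1), blocks, GC content and each library left out. Single values of 2 genes of the lists are not reported here.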

Additional observations from a re-analysis of the deposited data

Results flagged for a closer look

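In CRE library 3-1 Col3a1 stood at 145 CPM and Col1a2 at 58.4 CPM, far above the other 9 CRE libraries, and in CRE library 1-4 Col22a1 stood at 3.82 CPM, above the other CRE libraries. These came from 19 tests for a sample far from its group, of which chance flags about 1 in 20. The change of Col26a1 differed between cultures (adjusted p of the interaction 0.03895 by edgeR). CRE libraries 1-3 and 3-3 were left out of the comparison of 21 libraries. In each of them 4 of the 8 chains called higher lay above every RFP library, namely Col4a1, Col4a6, Col27a1 and Col5a1. Likewise 2 of the 6 called lower lay below every RFP library, namely Col25a1 and Col28a1. Col28a1 held 0 CPM in both, beside a lowest RFP value of 0.205 CPM, and CRE library 3-3 held only 1546796 counts in total.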

How the results depend on the processing

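Across 16 kinds of alternative, the number of chains called higher (8) left the range of 1.5 times for culture 3 alone (5). The number called lower (6) did so with culture and library number as a replicate block (3), with sums per culture (3), in culture 1 alone (2), in culture 3 alone (0 by edgeR, 3 at an unadjusted p under 0.05) and without culture 2 (2); fewer libraries enter these fits of single cultures. Fewer genes were called in these fits over all genes too. In the comparison of 21 libraries 2572 of 14482 genes were lower. In culture 3 alone 800 of 14938 were lower and 780 higher, and in culture 1 alone 1968 of 15164 were lower. Without culture 2 1737 of 14715 were lower, on sums per culture 2130 of 18275, and with the culture and library block 2210 of 14342. Leaving out each library in turn gave 7 to 10 chains higher and 4 to 7 lower. With all 23 libraries 8 were higher and 5 lower, with Col4a4, Col9a1 and Col28a1 lost and Col1a1 and Col19a1 gained. Leaving RFP library 2-4 out of the 21 libraries gave 8 higher and 6 lower, with Col26a1 lost and Col19a1 gained. Leaving out RFP libraries 2-4 and 3-2 gave 9 and 6, with Col10a1 gained. Col11a1, Col4a6 and Col5a1 were called in all 40 alternatives. In culture 3 alone the values of Col12a1 (0.35), Col26a1 (0.59) and Col9a1 (0.14) changed sign, as did Col3a1 in culture 1 (−0.21) and Col4a2 in culture 1 (−0.02), in culture 2 (−0.10) and without culture 3 (−0.07), and the cause was not tested. The CRE minus RFP difference of the log2 ratio of Col1a1 to Col1a2 went from −0.01 to 0.07 with all libraries, 0.11 with the 21 libraries of the study's supplement, 0.11 without RFP library 2-4 and 0.26 without RFP libraries 2-4 and 3-2, and that of Col5a1 to Col5a2 to 0.02 with all libraries. Libraries of the same culture number in CRE and RFP deviated together with correlations of 0.132, 0.179 and 0.0841, and the labels do not say that numbers mark a shared origin; with culture number as a replicate block 11 chains were higher and 7 lower, with Col1a1, Col3a1, Col10a1 and Col19a1 gained and none lost. On sums per culture none of these 4 was called (adjusted p = 0.136 for Col1a1 and 0.34 for Col3a1), and Col4a4, Col9a1, Col26a1 and Col28a1 lost their calls. At this depth 8 chains had too few counts to be tested with the filter.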
